A study of Phaseolus vulgaris and Phaseolus lunatus with 12 samples.

Results

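Small GTPases of the Ras family and the medium subunits of vesicle coat adaptors were followed in leaves of *Phaseolus lunatus* (lima bean) and *Phaseolus vulgaris* (common bean) that carried the spider mite *Tetranychus urticae* or none. The members are every gene whose domain family in the deposited count tables reads Ras or Adap_comp_sub, so membership rests on the annotation. They number 164 of 73321 genes: 69 Ras and 11 adaptor genes of 43997 in *P. lunatus*, and 74 Ras and 10 adaptor genes of 29324 in *P. vulgaris*. The infested groups were detached leaves of *P. lunatus* var. Peladilla and of *P. vulgaris* cv. California Red Kidney with 50 adult females of the London strain on each leaflet, frozen at 24 h. The control groups were detached leaves of the same 2 bean varieties without mites, and the labels pair no infested leaf with a control leaf. First true leaves were taken from plants aged 3 weeks that had grown at 23 °C under days of 16 h and nights of 8 h. Each of the 4 groups holds 3 libraries of leaf RNA, and the mites themselves were reared on *P. vulgaris*.

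Ras family proteins are molecular switches that are active with GTP bound and inactive with GDP bound. In plants the family holds Rabs, which mark membranes and guide vesicles to them, Rops, which act at the plasma membrane on cell polarity and signalling, Rans, which drive transport through the nuclear pore, and Miros of mitochondria. Plants have no Ras in the strict sense, so the domain name covers these relatives. Adaptor complexes AP-1 to AP-5 each hold a medium (mu) subunit that reads sorting signals on cargo; AP-2 works at the plasma membrane in endocytosis, and AP-1 at the trans-Golgi network and early endosome. The delta subunit of coatomer, the coat of vesicles that move within the Golgi and back to the endoplasmic reticulum, carries the same domain. Secretion of cell wall material and defence proteins runs through these routes in leaves.

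The product names bear out the labels of both families in *P. lunatus*, where all 80 members carry one. Of the 69 Ras genes, 48 are named as Rabs, 11 as Rops (Rac-like proteins), 3 as Rans, 2 as Miros, 3 as Septum-promoting GTP-binding protein 1 (a cell division GTPase known from fission yeast), 1 as LIP1 and 1 as an adaptin-binding protein p34. The 11 adaptor genes are named as mu subunits of AP-1, AP-2, AP-3 and AP-4 (2 genes each) and AP-5 (1 gene), and as coatomer delta (2 genes). In *P. vulgaris* only 7 of 74 Ras and 2 of 10 adaptor genes carry a product name, so the others are given by ID alone, without a role.

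Total counts were 13317991 to 17255676 per library in *P. lunatus* and 17264823 to 19343807 in *P. vulgaris*. Each species was fitted on its whole table with edgeR's quasi-likelihood test, and a gene passed at a Benjamini-Hochberg adjusted p below 0.05 over all tested genes. Levels are in CPM (counts scaled to a common library size) with TMM factors, fold changes are log2 of infested over control with their standard error (SE), and levels are set between genes only as CPM per kilobase of deposited gene length. Whether each library stands for a separate plant is not stated in the labels, so p-values measure the spread between libraries as labelled. Whole leaves were sampled, so fewer cells of a type and less RNA per cell cannot be told apart. Genes for chlorophyll a-b binding proteins, which mark green leaf tissue, summed to 14775 to 31678 CPM in infested *P. lunatus* leaves and to 38760 to 52469 CPM in control leaves (21 genes). Rubisco small subunit genes summed to 744 to 1807 CPM in infested and 2507 to 3449 CPM in control leaves of that species (2 genes). These leaf transcripts moved with infestation in *P. lunatus*, and their part in the results below was not tested. In *P. vulgaris* 1 chlorophyll a-b binding gene is named, at 22.6 to 25.0 CPM in infested and 23.6 to 28.6 CPM in control leaves. With 0 Rubisco small subunit genes named there, these leaf transcripts as a whole could not be followed in that species.

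In infested *P. lunatus* leaves 9 of the 61 tested Ras genes rose and 0 fell, and all 9 are Rabs. They are the 3 RABD genes, 2 RABE genes, 3 RABA genes and 1 RABH gene, and their increases ran from 1.30-fold to 2.50-fold. Of all 18523 tested genes 17.1% passed in either direction, with 9.65% higher and 7.46% lower. The 8 Ras genes that were not tested were too low, with at most 56 counts over all 6 libraries. The median log2 fold change over the 61 genes was 0.23, with quartiles of 0.02 and 0.43, against -0.01 over all tested genes. Values were positive for 46 Ras genes and negative for 15. At an unadjusted p below 0.05 there were 21 Ras genes, 18 higher and 3 lower, and that share of 34.4% stands near the 32.5% of all genes, of which 16.9% were on the higher side. The groups did not overlap in 21 Ras genes with infested leaves above and in 4 with infested leaves below, where 19.7% and 18.1% of all tested genes did so. DESeq2 called 12 of 69 Ras genes higher and 1 lower, where it called 2035 higher and 1672 lower of 24179 genes. The count rested on single libraries: 3 Ras genes passed without infested library 3 and 4 without infested library 2. Without control library 2 there were 5, 1 of them lower, and 6 to 8 without each other library in turn. Calls over all genes fell too, from 3170 to 1317 without infested library 3 and 1485 without infested library 2. They fell to 2368 without control library 2.

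The summed level of the Ras genes was 2215, 2233 and 2447 CPM in the infested and 1936, 1911 and 1928 CPM in the control libraries of *P. lunatus*. Infested library 3 was the highest, and the groups did not overlap. Per length, RABD and RABA genes held 15.5% and 14.7% of the summed family level, RAN genes 12.2% and RABE genes 11.2%. The 3 RABD genes together reached 345 ± 31.3 CPM per kilobase in infested and 241 ± 15.5 in control leaves (SD, n = 3 each), and the RABA genes reached 316 ± 27.8 in infested and 240 ± 4.80 in control leaves. RABE genes summed to 239 ± 11.3 CPM per kilobase in infested and 186 ± 3.50 in control leaves. The RABH and ROP sums lay close together in both groups, at 175 ± 10.0 CPM per kilobase in infested and 184 ± 19.7 in control leaves for RABH, and at 136 ± 8.57 in infested and 139 ± 6.98 in control leaves for ROP. These sums were not tested.

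**Figure D1:**
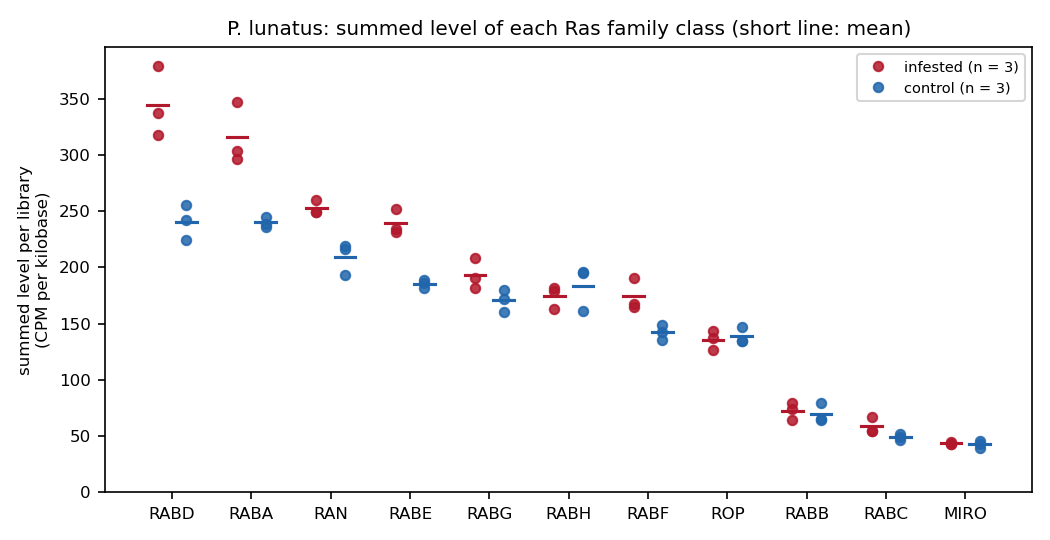
Summed level of each Ras family class in *P. lunatus*, in CPM per kilobase of gene length, with one point per library and a short line at the mean of 3 libraries; classes holding over 2% of the family level are drawn. The RABD points lie between 318 and 379 in infested leaves and between 224 and 255 in control leaves, while the ROP points of the groups overlap.

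RABD proteins, known from Arabidopsis and animals (where the relative is Rab1), act in transport between the endoplasmic reticulum and the Golgi, and all 3 RABD genes of *P. lunatus* rose. RABD2a on chromosome 8 (Pl08G0000052400.v1, 4314204 to 4317284) had 73.4, 83.8 and 91.7 CPM in infested and 53.9, 58.3 and 55.6 CPM in control libraries. The groups did not overlap, and the gene rose by 0.57 ± 0.11 on the log2 scale (SE; edgeR adjusted p = 0.0109). It passed whichever library was left out. The second RABD2a, on chromosome 10 (Pl10G0000011700.v1, 1115708 to 1119617), had 134, 139 and 161 CPM in infested and 102, 104 and 111 CPM in control libraries. Every infested library was above every control library, with a log2 fold change of 0.45 ± 0.11 (edgeR adjusted p = 0.0253). RABD2c on chromosome 3 (Pl03G0000310400.v1, 36878839 to 36882274) had 92.5, 89.9 and 101 CPM in infested libraries, against 53.6, 63.8 and 77.2 CPM in control libraries. Its control libraries were the more spread, and the change was 0.54 ± 0.14 (edgeR adjusted p = 0.0336). The call on RABD2a of chromosome 10 was lost without infested library 2 or 3 or control library 1 or 2 (edgeR adjusted p = 0.0565 to 0.101). The call on RABD2c was lost without each library but control library 3 (edgeR adjusted p = 0.0561 to 0.128).

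RABE proteins, relatives of animal Rab8, act in the route from the Golgi to the plasma membrane, and 2 of 4 RABE genes rose. RABE1c on chromosome 5 (Pl05G0000253300.v1, 34616795 to 34622150) had 52.2, 51.2 and 58.0 CPM in infested and 38.7, 35.5 and 38.4 CPM in control libraries. The groups were apart by more than their own spread, at 0.52 ± 0.10 on the log2 scale (edgeR adjusted p = 0.0102), and the gene passed whichever library was left out. RABE1c on chromosome 8 (Pl08G0000016800.v1, 1382081 to 1386588), the more abundant copy, had 153, 157 and 170 CPM in infested and 126, 126 and 117 CPM in control libraries. All infested libraries were again above, at 0.38 ± 0.10 (edgeR adjusted p = 0.0348). That call held without infested library 1 alone and was lost without each other library (edgeR adjusted p = 0.0540 to 0.131), and under library totals (0.0563) and upper-quartile factors (0.0545). The other 2 RABE genes had log2 fold changes of 0.22 and 0.18 that did not pass.

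RABA proteins, the largest Rab class in plants and relatives of animal Rab11, mark the trans-Golgi network and recycling endosomes. Of 20 RABA genes 19 were tested, 3 rose, and 16 of the 19 had positive values, with a class median of 0.38. Rab11D (Pl05G0000193800.v1, chromosome 5, 28292282 to 28296860) had 63.5, 73.4 and 81.2 CPM in infested and 50.0, 50.1 and 51.9 CPM in control libraries. Its control libraries were nearly equal and all infested libraries lay above them, at 0.52 ± 0.11 (edgeR adjusted p = 0.0167). RABA1b (Pl05G0000141100.v1, chromosome 5, 19611044 to 19614751) had 39.8, 33.8 and 41.1 CPM in infested and 30.5, 25.1 and 25.8 CPM in control libraries. The groups did not overlap, and the change was 0.49 ± 0.12 (edgeR adjusted p = 0.0308). RABA6a (Pl02G0000465100.v1, chromosome 2, 51310221 to 51312286) was a low gene with the highest change of the family, at 4.35, 6.05 and 7.11 CPM in infested and 3.03, 1.26 and 2.68 CPM in control libraries. It rests on 18 to 96 counts per library, and its change of 1.32 ± 0.36 had a 95% interval of 0.51 to 2.13 (edgeR adjusted p = 0.0382).

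All 3 RABA calls were lost when single libraries were left out. For Rab11D these were infested libraries 2 and 3 and control library 2 (edgeR adjusted p = 0.0515 to 0.0694). For RABA1b they were infested libraries 1 and 3 and control libraries 2 and 3 (edgeR adjusted p = 0.0742 to 0.120), and for RABA6a infested libraries 2 and 3 and control libraries 2 and 3 (edgeR adjusted p = 0.0693 to 0.149). Just outside the threshold stood Rab11A (Pl02G0000389700.v1), at 0.43 ± 0.13 (edgeR adjusted p = 0.0555), and RABA4d (Pl07G0000379800.v1), at 1.27 ± 0.39 (edgeR adjusted p = 0.0573); both picked with their values in view. The 3 RABA genes with negative values had 95% intervals that all included 0.

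RABH proteins, relatives of animal Rab6, act at the Golgi, and 1 of 3 tested RABH genes rose. RABH1e (Pl02G0000391400.v1, chromosome 2, 45286573 to 45289795) had 10.6, 16.7 and 16.0 CPM in infested libraries, against 6.51, 5.82 and 5.65 CPM in control libraries. Infested library 1 was the lowest of its group and still above all controls; the change was 1.27 ± 0.21, with the smallest p of the family (edgeR adjusted p = 0.00564), and it passed whichever library was left out. RABH1b (Pl02G0000124600.v1), the Ras gene with the highest level per length in the species, had 104, 117 and 114 CPM in infested and 132, 133 and 108 CPM in control libraries. Those groups overlapped, at -0.16 ± 0.12 (95% interval -0.42 to 0.11, edgeR adjusted p = 0.407). The other RABH1b (Pl03G0000306000.v1), outside the rule for named genes, had 0.40 with a 95% interval of -0.18 to 0.98, and differences between the RABH genes were not tested. The abundant RABH1b stood at 165 CPM per kilobase and RABH1e at 7.97, so most of the class sum is the abundant copy.

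**Figure D2:**
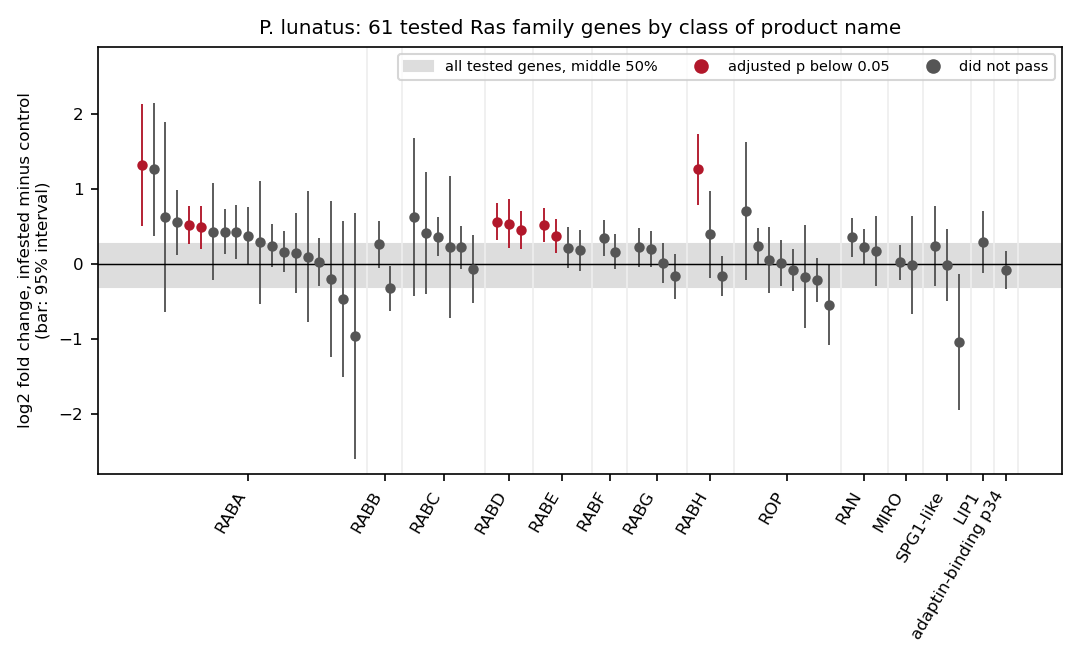
Log2 fold change, infested minus control, of the 61 tested Ras genes of *P. lunatus*, grouped by the class in their product name, with bars for the 95% interval of each gene (3 libraries per group). Red points are the 9 genes with an adjusted p below 0.05; the grey band holds the middle 50% of all tested genes, and 46 of the 61 points lie above 0.

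None of the other Rab classes held a gene that passed in *P. lunatus*. RABC genes, of 6 tested, had 5 positive values and a class median of 0.30. RABF proteins, relatives of animal Rab5, belong to endosomes, and RHN1 (Pl06G0000200600.v1) of this class, chosen after its values were seen, had 129, 129 and 150 CPM in infested and 110, 102 and 107 CPM in control libraries. Its groups did not overlap, at 0.35 ± 0.11, but it stayed above the threshold (edgeR adjusted p = 0.0527, DESeq2 adjusted p = 0.0284). Rab7 proteins (RABG) act at the vacuole, and the most abundant Rab7 gene (Pl11G0000053000.v1) had 141, 153 and 164 CPM in infested and 143, 120 and 130 CPM in control libraries. These overlapped, at 0.23 ± 0.11 with a 95% interval of -0.03 to 0.48 (edgeR adjusted p = 0.205). The 2 RABB1c genes, relatives of animal Rab2, had values of 0.27 and -0.32.

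Outside the Rabs, 0 of 18 tested Ras genes passed in *P. lunatus*, and among the Rabs 9 of 43, where 17.1% of all tested genes passed. The median was 0.02 outside the Rabs, against 0.29 for the 43 tested Rabs. This split was made after the values were seen and was not tested. Of the 8 tested Rops, 4 had positive and 4 negative values. RAC2 on chromosome 5 (Pl05G0000202400.v1), chosen after its values were seen, had 8.46, 5.32 and 8.45 CPM in infested and 12.96, 9.18 and 10.1 CPM in control libraries. All infested libraries lay below the controls, at -0.54 ± 0.23, without passing (edgeR adjusted p = 0.146). A second RAC2, on chromosome 11 (Pl11G0000220900.v1), had 1, 3 and 3 counts in infested and 30, 8 and 11 counts in control libraries, fell under the filter on low counts, and was the 1 Ras gene that DESeq2 called lower (adjusted p = 0.0269). All 3 Ran genes were positive. Ran-3 (Pl09G0000073400.v1), second in level at 150 CPM per kilobase, had 212, 208 and 216 CPM in infested and 185, 188 and 168 CPM in control libraries. Its groups were apart, at 0.23 ± 0.10, yet it did not pass (edgeR adjusted p = 0.148). It lies 2039 bases from a second Ran-3 gene (Pl09G0000073500.v1), at 0.36 ± 0.11 (edgeR adjusted p = 0.0640), and reads that fit both copies may have been counted in either. The lowest change among the Ras genes held to a minimum level was Septum-promoting GTP-binding protein 1 on chromosome 11 (Pl11G0000122600.v1), with 0.932, 1.66 and 1.48 CPM in infested and 2.80, 3.92 and 1.74 CPM in control libraries. The infested libraries were below by a small margin, at -1.04 ± 0.40 (edgeR adjusted p = 0.109).

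Of the 11 adaptor genes of *P. lunatus*, all tested, 4 rose and 0 fell: both AP-2 mu genes, 1 of 2 AP-1 mu-2 genes and 1 of 2 AP-4 mu genes. All 11 had positive log2 fold changes, with a median of 0.36, against -0.01 over all tested genes, of which 9.65% were called higher. In 9 of the 11 the infested libraries all lay above the controls, where 19.7% of all tested genes did so. At an unadjusted p below 0.05 there were 7, all higher, where 32.5% of all tested genes stood in either direction and 16.9% on the higher side. DESeq2 called the same number as edgeR, 4 higher, where it called 2035 higher and 1672 lower of 24179 genes. The summed level was 435, 458 and 481 CPM in infested and 338, 348 and 357 CPM in control libraries, so the lowest infested library was above the highest control library. The count fell to 1 without infested library 2, infested library 3 or control library 2, and was 3 or 4 without each other library. Over all genes, calls fell from 3170 to 1485 without infested library 2, 1317 without infested library 3 and 2368 without control library 2.

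The strongest adaptor change was in a short AP-2 mu gene of 567 bases (Pl02G0000121100.v1, chromosome 2, 10292312 to 10295382). It had 7.45, 8.17 and 6.74 CPM in infested libraries, against 2.06, 3.29 and 3.18 CPM in control libraries. The groups were far apart, the change was 1.40 ± 0.25 (edgeR adjusted p = 0.0083), and it passed whichever library was left out. The next gene on the chromosome, from 10296242 to 10296813 (Pl02G0000121200.v1, 467 bases), is also named as AP-2 mu but carries no adaptor domain family, and it had 0.82 ± 0.33 (edgeR adjusted p = 0.123). The full-length AP-2 mu gene (Pl03G0000303400.v1, 1913 bases, chromosome 3, 36088472 to 36094591) had 99.2, 97.0 and 98.8 CPM in infested and 73.9, 74.2 and 77.6 CPM in control libraries. Libraries of each group were nearly equal and the groups apart, at 0.39 ± 0.09 (edgeR adjusted p = 0.0212). How reads shared by these AP-2 mu copies were counted is not stated, so the short genes are uncertain as single genes. The call on the full-length gene was lost without each infested library in turn and without control library 2 (edgeR adjusted p = 0.0503 to 0.0794).

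AP-1 mu-2 on chromosome 2 (Pl02G0000137400.v1, 11866487 to 11870662) had 60.2, 65.1 and 65.8 CPM in infested and 44.3, 46.2 and 50.4 CPM in control libraries. All infested libraries were above, at 0.44 ± 0.10 (edgeR adjusted p = 0.0186). The second AP-1 mu-2 (Pl03G0000075200.v1), at 35.7, 38.9 and 42.4 CPM in infested and 32.7, 30.3 and 28.2 CPM in control libraries, had a like value of 0.36 ± 0.11 that did not pass (edgeR adjusted p = 0.0586). AP-4, a complex of the trans-Golgi network that forms vesicles without clathrin, gave 49.9, 63.9 and 71.7 CPM in infested and 48.4, 37.8 and 35.0 CPM in control libraries for its mu gene on chromosome 9 (Pl09G0000031600.v1, 2400385 to 2405450). Infested library 1 was barely above the highest control, and the change was 0.61 ± 0.17 (edgeR adjusted p = 0.0402). The AP-1 mu-2 call was lost without infested library 2 or 3 or control library 2 (edgeR adjusted p = 0.0591 to 0.0792). The AP-4 mu call was lost without infested library 2 or 3 or control library 2 or 3 (edgeR adjusted p = 0.111 to 0.153), and under library totals (0.0532) and upper-quartile factors (0.0526).

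The other *P. lunatus* adaptor genes were positive without passing. Coatomer delta on chromosome 7 (Pl07G0000023900.v1), the family's most abundant gene per length, had 105, 112 and 116 CPM in infested and 76.2, 92.2 and 95.8 CPM in control libraries. Its groups did not overlap, at 0.33 ± 0.12 (edgeR adjusted p = 0.087). AP-3 mu genes, of a complex for transport to the vacuole, had 0.32 and 0.17. AP-5 mu (Pl03G0000169100.v1) had the lowest value, 0.12 ± 0.14, with 14.4, 16.3 and 16.8 CPM in infested and 13.4, 13.7 and 16.6 CPM in control libraries that overlapped.

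**Figure D3:**
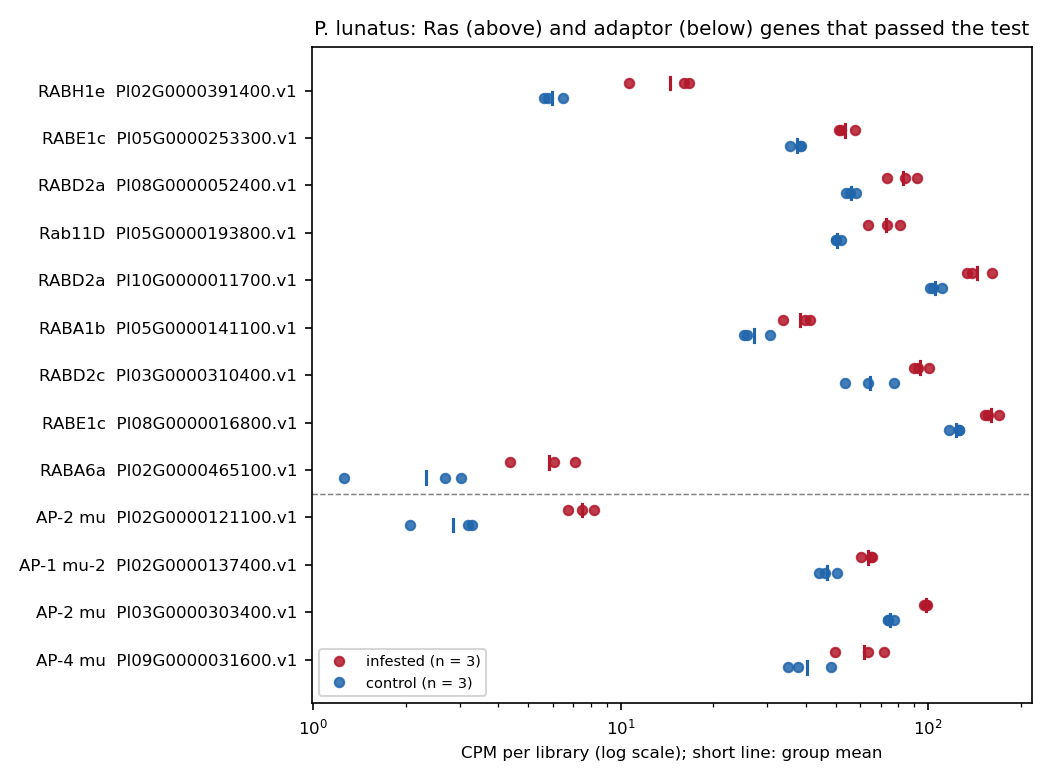
CPM in each library (log scale) of the 9 Ras genes, above the dashed line, and the 4 adaptor genes, below it, that passed the test in *P. lunatus*; red points are infested and blue points control libraries, 3 each, with a short line at each group's mean. In all 13 genes the lowest infested library lies above the highest control library, by the widest margin in RABH1e and the short AP-2 mu gene and by a small one in AP-4 mu. The 13 genes were chosen by the test on these same values, so this separation adds no evidence. Of all tested genes 19.7% had infested libraries above in this way.

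The same fit gives the proteins that work with these families in *P. lunatus*, from lists set by product name or domain family. Of 289 tested genes for coats, ARF and SAR GTPases, SNAREs, tethers, GTPase regulators and dynamins, 47 rose and 8 fell, where 9.65% of all tested genes were higher and 7.46% lower. Their median was 0.17, against -0.01 over all tested genes. The total of 55 was 19 without infested library 2, 17 without infested library 3 and 34 without control library 2. Over all genes the total of 3170 was 1485, 1317 and 2368 in the same order. Of 57 coat genes 20 were higher and 0 lower. Among them 8 of the 11 coatomer subunit genes that lie outside the adaptor family rose and all 11 were positive, with a median of 0.55. Coatomer alpha-1 (Pl11G0000048000.v1) had 129, 118 and 120 CPM in infested and 72.2, 81.6 and 85.3 CPM in control libraries, at 0.62 ± 0.10 (edgeR adjusted p = 0.00678). Of the large and small subunits that partner the mu proteins, 2 of 5 tested for AP-1, 1 of 3 for AP-4 and 0 of 2 for AP-3 rose, and for AP-2 1 of 3, a count that includes the short gene without the domain. AP-4 epsilon (Pl02G0000064900.v1) rose by 0.57 ± 0.09 on the log2 scale (edgeR adjusted p = 0.00478), while the 2 AP-4 sigma genes had -0.05 and -0.03.

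ARF and SAR GTPases, which recruit coats to membranes, carry another domain name and so are not Ras members. With their regulators, 13 of 39 tested genes rose and 2 fell, where 9.65% of all tested genes were higher and 7.46% lower. SAR1A (Pl09G0000351800.v1), the switch that starts vesicle budding from the endoplasmic reticulum, had 40.9, 48.0 and 52.2 CPM in infested and 20.8, 24.9 and 19.7 CPM in control libraries. The infested libraries all lay far above, at 1.11 ± 0.14 (edgeR adjusted p = 0.00165), and AGD7 (Pl01G0000316700.v1), an ARF GTPase-activating protein, rose by 0.61 ± 0.10 (edgeR adjusted p = 0.0053). SNARE genes, whose proteins fuse vesicles with their target, gave 2 higher and 1 lower of 52, where 17.1% of all tested genes passed in either direction. The 2 higher ones were KEULE (Pl03G0000321100.v1), a SNARE-binding protein of cell division known from Arabidopsis, at 0.44 ± 0.10 (edgeR adjusted p = 0.0170), and VAMP725 (Pl08G0000140500.v1), at 0.46 ± 0.12 (edgeR adjusted p = 0.0346). The KEULE call was lost without infested library 2 or 3 or control library 2 (edgeR adjusted p = 0.0530 to 0.0712), and the VAMP725 call held without infested library 1 alone (otherwise 0.0554 to 0.121).

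Regulators that switch small GTPases off or on gave 3 higher and 3 lower of 45 in *P. lunatus*, where 17.1% of all tested genes passed in either direction. TBC1 domain family member 5 (Pl09G0000330000.v1), named after proteins that stimulate GTP hydrolysis by Rabs, had 152, 150 and 182 CPM in infested libraries, against 63.8, 63.5 and 58.3 CPM in control libraries. Its libraries were far apart, at 1.38 ± 0.12 (edgeR adjusted p = 0.000257), and its point value was above that of each Ras gene that passed. The list of tethers, which hold a vesicle at its target before fusion, also takes in genes named for vacuolar protein sorting, and it gave 7 higher and 1 lower of 87, against the same 17.1% of all genes. EXO70H1 (Pl01G0000319200.v1), an exocyst subunit, had 36.8, 35.2 and 40.3 CPM in infested and 16.7, 14.6 and 15.7 CPM in control libraries, at 1.26 ± 0.11 (edgeR adjusted p = 0.000348). VPS2 homolog 1 (Pl09G0000322000.v1), of the ESCRT machinery, rose by 0.58 ± 0.09 (edgeR adjusted p = 0.00449). Dynamins, which pinch membranes, gave 2 higher and 1 lower of 9, against the same 17.1% of all genes. Dynamin-related protein 5A (Pl02G0000434600.v1) was higher, at 0.64 ± 0.13 (edgeR adjusted p = 0.0153). ARC5 (Pl02G0000333200.v1), a protein of chloroplast division, was the lower one, at -0.62 ± 0.15 (edgeR adjusted p = 0.0244). The Dynamin-related protein 5A call was lost without infested library 2 or 3 (edgeR adjusted p = 0.0520 and 0.0693), and the ARC5 call without infested library 2 or 3 or control library 2 or 3 (0.0646 to 0.103).

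In *P. vulgaris* 0 of the 68 tested Ras genes and 0 of the 10 adaptor genes passed edgeR's quasi-likelihood test, and DESeq2 called 0 of either as well. Of all 19360 tested genes 0.976% passed, with 0.935% higher and 0.0413% lower, so few or no members would pass at that share. At an unadjusted p below 0.05 there were 7 Ras genes, 6 higher and 1 lower, and 0 adaptor genes, where 10.5% of all tested genes stood in either direction and 6.31% on the higher side. The median log2 fold change was 0.09 over the Ras genes and 0.05 over the adaptor genes, against -0.003 over all. Of the Ras genes 46 had positive and 22 negative values, and of the adaptor genes 6 had positive and 4 negative values. The groups did not overlap in 11 Ras genes with infested leaves above and 3 with infested leaves below, where 9.09% and 7.95% of all tested genes did so, and they overlapped in all 10 adaptor genes. The 6 Ras genes not tested had at most 54 counts in all, and 2 of them had 0 counts in every library.

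The intervals bound what the *P. vulgaris* libraries could have missed. For 53 of the 68 Ras genes the 95% interval lay within a 2-fold change in either direction, and for 38 within 1.5-fold. All 10 adaptor genes lay within 2-fold and 9 within 1.5-fold. The summed Ras level was 3072, 2828 and 2652 CPM in infested and 2641, 2747 and 2612 CPM in control libraries. Infested library 3 lay inside the control range, so the groups overlapped. The summed adaptor level was 429, 397 and 412 CPM in infested and 396, 400 and 422 CPM in control libraries, which also overlapped.

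The Ras gene with the smallest p in *P. vulgaris*, PHAVU_005G141600g, had 49.2, 44.1 and 41.8 CPM in infested and 38.9, 39.0 and 34.4 CPM in control libraries. The groups did not overlap, but its change of 0.27 ± 0.10 was far from passing (edgeR adjusted p = 0.376). PHAVU_009G180800g, at 16.0, 15.7 and 17.5 CPM in infested and 13.2, 11.7 and 13.7 CPM in control libraries, had 0.35 ± 0.13 (edgeR adjusted p = 0.390). PHAVU_009G095600g had 196, 163 and 166 CPM in infested and 146, 152 and 146 CPM in control libraries, at 0.24 ± 0.09 (edgeR adjusted p = 0.394). It is the last of 3 Ras genes in a row on chromosome 9, 14718390 to 14731273, whose other two had 0.18 and 0.08. The highest and lowest changes among the better counted genes were PHAVU_007G257200g, at 0.69 ± 0.30, and PHAVU_001G181300g, at -0.39 ± 0.41. The first of these had 6.09, 7.22 and 4.30 CPM in infested and 3.64, 2.64 and 4.62 CPM in control libraries, which overlapped.

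The 5 most abundant Ras genes of *P. vulgaris* all had 95% intervals within 2-fold. PHAVU_002G003500g, the highest at 224 CPM per kilobase, had 249, 275 and 224 CPM in infested and 234, 259 and 226 CPM in control libraries. The libraries were interleaved, at 0.06 ± 0.10 (95% interval -0.17 to 0.29). PHAVU_009G095400g, at 219 CPM per kilobase, had 298, 263 and 231 CPM in infested and 220, 243 and 234 CPM in control libraries, with an interval of -0.05 to 0.42. PHAVU_011G046100g, at 172 CPM per kilobase, had an interval of -0.08 to 0.46, and PHAVU_006G086000g, at 111 CPM per kilobase, one of -0.15 to 0.24. Only PHAVU_009G095600g, at 138 CPM per kilobase, had an interval that excluded 0, of 0.04 to 0.45, without passing. The 5 most abundant Ras genes held 37.2% of the summed family level per length in *P. vulgaris* and 35.1% in *P. lunatus*.

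**Figure D4:**
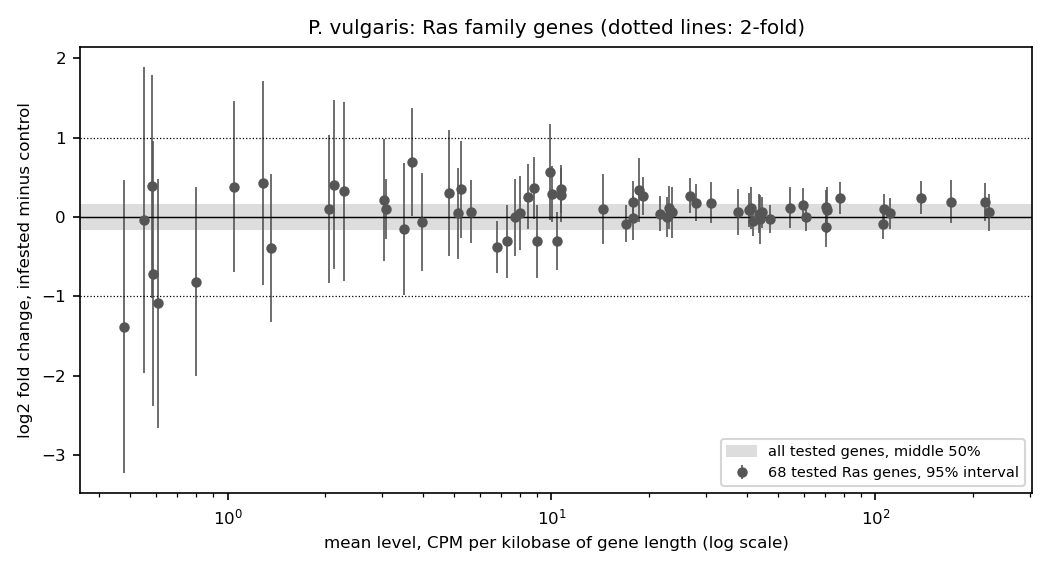
Log2 fold change, infested minus control, against mean level (CPM per kilobase, log scale) of the 68 tested Ras genes of *P. vulgaris*, with 95% intervals from 3 libraries per group. The intervals of the abundant genes lie well inside the dotted 2-fold lines, and those reaching beyond them belong to genes at 9.89 CPM per kilobase or less.

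A product name ties only 7 Ras genes of *P. vulgaris* to a class, and they were taken for that reason and not by the rule for named genes. RABD2a (PHAVU_010G048200g, chromosome 10) had 100, 84.0 and 84.1 CPM in infested and 81.4, 83.7 and 80.5 CPM in control libraries. Its infested libraries were all above the controls by a narrow margin, at 0.13 with a 95% interval of -0.08 to 0.34, where the *P. lunatus* RABD2a genes had 0.57 and 0.45. RABD1 (PHAVU_006G220300g) had -0.03, with an interval of -0.34 to 0.28. RABA1b (PHAVU_005G081400g) had 0.18, with an interval of -0.06 to 0.42, where the *P. lunatus* gene of that name had 0.49. RABA5b (PHAVU_008G135600g) had 0.36 and RABA1a (PHAVU_005G093700g) -0.03, RABC1 (PHAVU_001G064800g) had -0.004, and the gene named only as a monomeric G-protein (PHAVU_011G104400g) had -0.31. All 7 of these intervals included 0.

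The adaptor genes of *P. vulgaris* stayed within a narrow band of -0.15 to 0.21 on the log2 scale. AP4M (PHAVU_008G181200g), the AP-4 mu gene, had the smallest p and the highest value, with 23.2, 26.2 and 22.8 CPM in infested and 19.7, 23.3 and 19.4 CPM in control libraries. The groups overlapped, at 0.21 ± 0.12 (95% interval -0.06 to 0.47, edgeR adjusted p = 0.583), and the *P. lunatus* AP-4 mu genes had 0.61 and 0.34. AP-5 mu (PHAVU_003G097700g) had the lowest value, -0.15 ± 0.12 (edgeR adjusted p = 0.718), with 20.9, 18.03 and 18.3 CPM in infested and 20.3, 19.95 and 23.1 CPM in control libraries that overlapped. The most abundant adaptor gene, PHAVU_009G061100g at 42.9 CPM per kilobase, had 101, 84.8 and 87.3 CPM in infested and 92.7, 95.6 and 91.2 CPM in control libraries, with an interval of -0.23 to 0.17. The other genes high in level per length were PHAVU_003G230400g at 0.07 (edgeR adjusted p = 0.784), PHAVU_007G023200g at 0.06, PHAVU_002G059300g at -0.06 and PHAVU_003G063300g at 0.03. Of 115 tested genes on the other traffic lists in this species 0 passed edgeR, where 0.976% of all tested genes did. An unadjusted p below 0.05 was seen in 8 of them, where 10.5% of all tested genes had one. DESeq2 called 1, where it called 390 higher and 65 lower of 23473 genes. These lists held 6 tested coat genes, against 57 in *P. lunatus*, so they do not show how the coats as a whole moved in *P. vulgaris*.

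**Figure D5:**
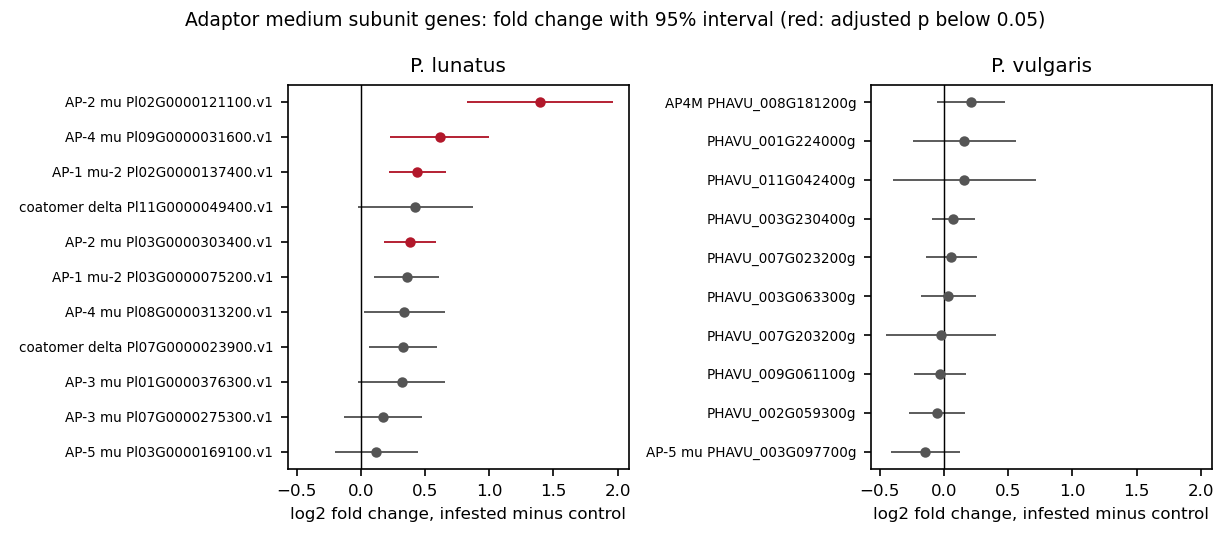
Log2 fold change, infested minus control, of the 11 adaptor genes of *P. lunatus* (left) and the 10 of *P. vulgaris* (right), with 95% intervals from 3 libraries per group; red marks an adjusted p below 0.05. In *P. lunatus* all points lie above 0 and 4 are red, while in *P. vulgaris* the points lie between -0.15 and 0.21 and every interval includes 0.

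The species were fitted apart, with different gene IDs and without an ortholog map, so a difference in response between them was not tested for any gene or for either family.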

How the data were processed

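RNA sequencing measured bean transcripts in 12 leaf libraries. The authors deposited raw read counts per gene, 1 table per species, with gene coordinates, gene length, product name and domain family; per the submitters' processing notes HISAT2, featureCounts and DESeq2 were used. No source used here gives genome builds, versions or the strand setting; coordinates stand as deposited and antisense or near-identical genes may share reads. Product names read like best database matches.

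Each species was fitted alone in edgeR 4.0.16 (R 4.3.3) with TMM factors, filterByExpr and the quasi-likelihood test; SE is the log2 fold change over the root of F, and intervals are 95%. The fits were tested on simulated data. The alternatives were median-ratio, upper-quartile and no scaling factors, no filter, a filter of 1 CPM in 3 libraries, a robust fit, DESeq2 1.42.0, a replicate block and each library left out.

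The text names every member that passed, the 5 highest in CPM per kilobase, the highest and lowest change at an average log2 CPM of at least 1, where none passed the 3 smallest p, and per traffic list the 2 called genes of smallest p. A gene that this rule names is not reported here. Members and lists were chosen with earlier results of these data known. No within-group pair of libraries matched within counting error. Sequences were not used here. Counts may limit precision for low genes. Tested Ras members had 87 to 17014 counts over 6 libraries in *P. lunatus* and 57 to 26721 in *P. vulgaris*.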

Additional observations from a re-analysis of the deposited data

How the results depend on the processing

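Under the 8 alternatives that kept every library, the *P. lunatus* count was 8 to 13 Ras and 3 or 4 adaptor genes, except with a replicate block. By labels the libraries share only a number. Same-number correlations were -0.22, 0.05 and -0.18 in *P. lunatus* and 0.14, 0.09 and 0.21 in *P. vulgaris*, where each library correlated best with its own number (other pairs -0.20 to 0.08), a hint from the data and not the design. With the replicate block 3 Ras, 1 adaptor, 22 other traffic and 1617 of all genes were called in *P. lunatus*, and 539 of all genes, against 189 without it, and 1 traffic gene in *P. vulgaris*. Leaving out 1 library gave 3 to 8 Ras, 1 to 4 adaptor, 17 to 46 traffic and 1317 to 3204 of all genes in *P. lunatus*, and 92 to 172 of all genes and 0 to 1 traffic gene in *P. vulgaris*. DESeq2 called 455 of all genes and 1 traffic gene in *P. vulgaris*. Both families kept a positive median in every setting: 0.17 to 0.26 (Ras) and 0.31 to 0.40 (adaptor) in *P. lunatus*, 0.05 to 0.12 and 0.003 to 0.10 in *P. vulgaris*. Of all *P. lunatus* genes, 1788 were higher and 1382 lower with TMM, 1578 and 1680 with upper-quartile factors, 1614 and 1612 with library totals. Uncalled values near 0 in *P. vulgaris* changed sign when 1 library was left out: PHAVU_002G059300g ran over -0.12 to 0.0049, PHAVU_003G063300g over -0.036 to 0.11, PHAVU_009G061100g over -0.11 to 0.018, PHAVU_002G003500g over -0.018 to 0.13 and PHAVU_006G086000g over -0.026 to 0.10. The cause was not tested. Intervals of some low Ras genes pass 2-fold and those of other low Ras genes do not. The part of depth in this was not tested.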
